A study of Mus musculus with 12 samples.

Results

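Heat shock chaperone genes and the gene of their transcription factor, Hsf1, were followed in mouse oocytes of 3 Marf1 genotypes. The set was chosen by gene symbol, with earlier results of these data known. It holds 10 of the 24254 genes of the deposited expression table: Hsf1, the cytosolic Hsp70 genes Hspa1a, Hspa1b, Hspa2 and Hspa8, the Hsp110 genes Hspa4 and Hsph1, the Hsp40 gene Dnajb1, and the cytosolic Hsp90 genes Hsp90aa1 and Hsp90ab1. The 10 genes were above 0 FPKM (sequenced fragments per kilobase, corrected for library size) in every library, and 10 of 10 passed the filter for testing. Oocytes need the RNA-regulating protein MARF1 for meiosis to resume. The genotypes were D272Mut, a Marf1 mutant that the labels name by D272, GTMut, a gene trap of Marf1, and WT, with 4 libraries of 80 oocytes each. The oocytes were fully grown, at the germinal vesicle stage of meiotic arrest, and in all 3 genotypes came from C57BL/6 mice aged 3 weeks that had been given 5 IU of PMSG, a hormone that stimulates ovarian follicles, 46 h earlier. The base change of D272Mut, the zygosity of the mutants and the number of mice per library are not given in the sources used here. No label states that replicate libraries are from different animals, so p-values measure the spread between libraries, which may be technical.

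The heat shock response is the program by which cells raise their chaperones. HSF1 is held inactive in complexes with chaperones. When unfolded proteins draw these chaperones away, HSF1 forms trimers, binds promoters at heat shock elements, which are repeats of the unit GAA in alternating orientation, and switches on the inducible Hsp70 genes and their partners. The chaperones act as one machine. Hsp40 proteins such as DNAJB1 bring clients to Hsp70 and start its ATP cycle, Hsp110 proteins such as HSPH1 and HSPA4 release the spent nucleotide, and Hsp90 finishes the folding of kinases and receptors. In the mouse, HSF1 is also a maternal factor: oocytes that lack it fail in meiosis and embryos from them arrest early, and HSF1 drives Hsp90aa1 in the oocyte without heat. Fully grown oocytes are largely silent in transcription, so their RNA was mostly made during growth.

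The promoters of the paired inducible Hsp70 genes and of Hsph1 are shown because these members moved together and their windows hold matches to heat shock elements. The windows are from RefSeq on GRCm38.p6, the assembly that mm10 names, and run from 250 bases before to 50 bases after the transcription start, on the strand of the gene. Windows were found for 6 of the 10 members. Capitals mark matches to units of GAA or TTC that face each other or stand back to back at a spacing of 2 bases.
Hspa1b, chr17:34959189-34959488, minus strand: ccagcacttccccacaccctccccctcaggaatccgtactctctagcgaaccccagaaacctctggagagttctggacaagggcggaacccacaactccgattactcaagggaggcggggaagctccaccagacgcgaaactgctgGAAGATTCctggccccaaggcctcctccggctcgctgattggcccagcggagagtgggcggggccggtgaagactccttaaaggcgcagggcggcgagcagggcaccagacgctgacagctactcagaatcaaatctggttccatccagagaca
Hspa1a, chr17:34972107-34972406, minus strand: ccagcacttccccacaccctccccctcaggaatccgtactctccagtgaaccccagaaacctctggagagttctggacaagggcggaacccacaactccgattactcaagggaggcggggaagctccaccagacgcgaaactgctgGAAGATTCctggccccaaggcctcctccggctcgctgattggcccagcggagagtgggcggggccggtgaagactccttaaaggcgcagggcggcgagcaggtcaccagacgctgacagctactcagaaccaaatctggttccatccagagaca
Hsph1, chr5:149636287-149636586, minus strand: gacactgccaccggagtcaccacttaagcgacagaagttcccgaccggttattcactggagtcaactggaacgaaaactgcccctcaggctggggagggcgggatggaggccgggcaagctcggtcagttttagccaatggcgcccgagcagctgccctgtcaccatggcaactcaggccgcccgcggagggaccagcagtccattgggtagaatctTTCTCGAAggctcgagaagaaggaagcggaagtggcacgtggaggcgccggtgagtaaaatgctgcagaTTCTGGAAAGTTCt

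The Hspa1b and Hspa1a windows were the same at 296 of 300 bases, or 98.7%. Counted from 1 at the 5′ end of the window, with the Hspa1b base first, the differences were T44C, C47T, G249T and T276C. Both windows hold the 2-unit motif GAANNTTC once, as GAAGATTC, with its first base at -104 from the start. Hsph1 has 2 annotated starts, and the window of the upstream start holds TTCTCGAA, a match to the back-to-back motif TTCNNGAA, at -33, and a run of 3 units at +37, in which a match to each of these motifs overlaps the other. The windows of Hspa2, Hspa4 and Dnajb1 held no match to either 2-unit motif, and no window of a member held TATAAA. Searched on both strands, GAANNTTC stood in 7.86% of 32851 promoter windows, TTCNNGAA in 8.52%, either motif in 15.1%, a run of 3 units in 0.603% and TATAAA in 13.6%. Hsf1, Hspa8, Hsp90aa1 and Hsp90ab1 are named only. A match is a stretch of letters and was not tested for binding.

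Levels are given as mean FPKM ± SD of the 4 libraries of a genotype. FPKM divides by transcript length, so levels of different genes can be set side by side. Differences are in log2(FPKM + 1), where the added 1 shrinks the change of weakly expressed genes, with the standard error of a limma fit over all 12 libraries, and an adjusted p is that of limma after Benjamini-Hochberg adjustment over 12980 tested genes, with 0.05 as the threshold. The level of the targeted gene could check only the gene trap label, as FPKM does not show a base change. Marf1 stood between 1.30 and 1.57 FPKM in the GTMut libraries. It stood between 52.0 and 54.5 FPKM in D272Mut and between 25.0 and 26.4 in WT. Absolute depth is unknown from FPKM values, so no counting interval is given. Depth relative to GTMut replicate 4, read from the value of 1 fragment in low genes, was 0.444 to 0.837 in D272Mut, 0.556 to 1 in GTMut and 0.613 to 0.944 in WT. The labels and headers give no batch or date. The mutants differed from WT at most tested genes, so the counts below are read against that background.

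Both mutants held Hspa1a, Hspa1b, Hspa8, Dnajb1 and the Hsp110 genes at higher levels than WT. The Hsp90 genes, Hsf1 and Hspa2 were not called higher. For Hsp90aa1 in both mutants and Hsp90ab1 in GTMut that depended on the scaling of libraries. Against WT, 6 of 10 members were higher in D272Mut, 3 were lower and 1 did not pass the threshold, where 36.3% of all tested genes were higher and 39.5% lower. In GTMut 6 of 10 were higher than in WT, 2 were lower and 2 did not pass, against 38.3% of all tested genes higher and 39.2% lower. In each mutant the 6 were Hspa1b, Hspa1a, Dnajb1, Hsph1, Hspa4 and Hspa8. On the log2(FPKM + 1) scale 5 of them were called at least 2-fold higher in D272Mut and in GTMut, where 17.9% and 19.3% of all tested genes were. The median difference over the 10 members was 0.80 in D272Mut and 0.74 in GTMut, where the medians over all tested genes were -0.05 and -0.02. Both mutants were compared with the same 4 WT libraries. The libraries of mutant and WT did not overlap for 9 members in D272Mut and 7 in GTMut, against 69.1% and 72.9% of all tested genes.

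**Figure D1:**
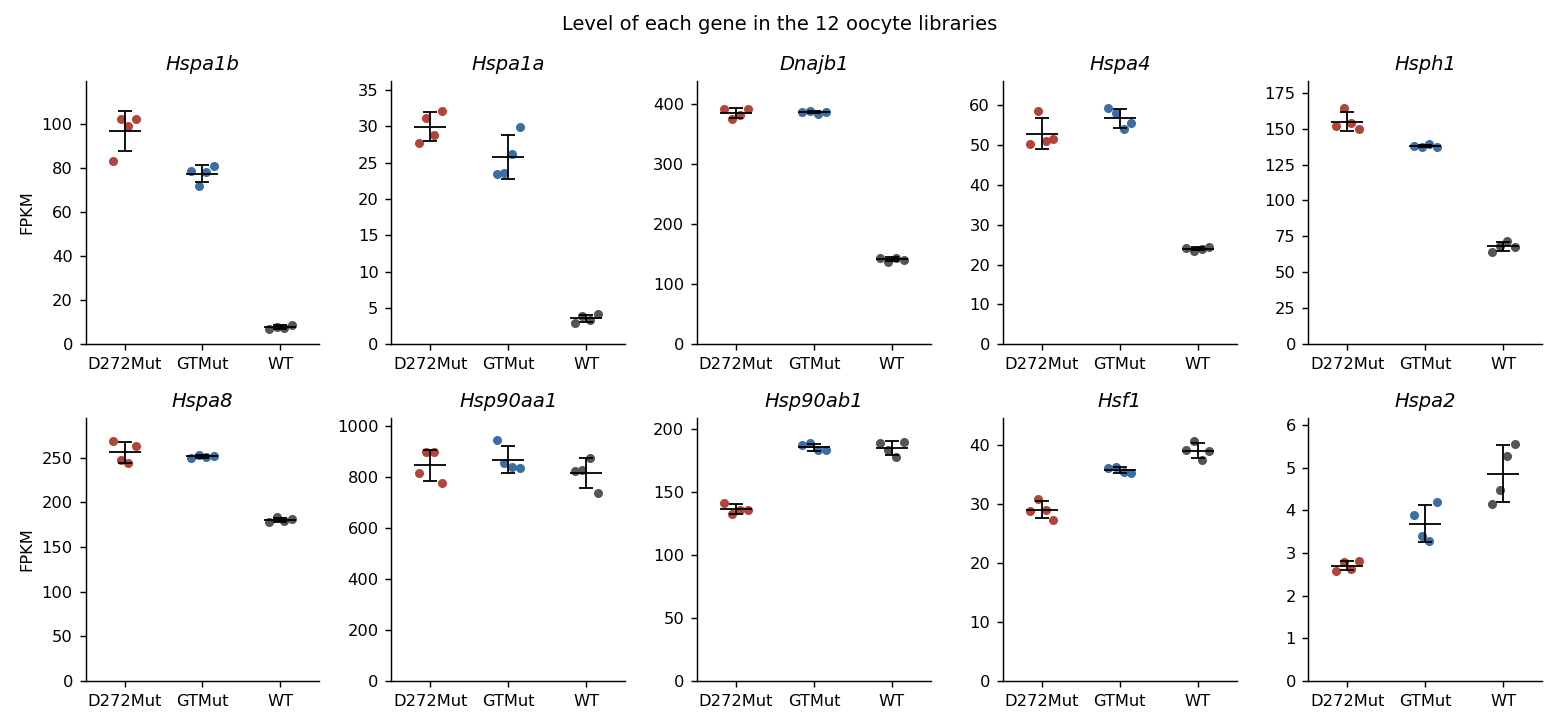
FPKM (linear axis from 0, a scale of its own for each gene) of the 10 genes in the D272Mut, GTMut and WT libraries. Points are the 4 libraries of a genotype, and bars are their mean and SD. Hspa1b, at 83.1 to 102 FPKM in D272Mut and 72.0 to 80.7 in GTMut, stood above 6.92 to 8.69 in WT, while the Hsp90aa1 libraries of the 3 genotypes overlapped.

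The inducible Hsp70 genes rose most. Hspa1b and Hspa1a are intronless neighbours whose products, both called HSP70, are nearly the same protein and are the classical targets of HSF1. Hspa1b (mm10 chr17:34956427-34959238, minus strand, 1 exon) had 83.1, 102, 98.9 and 102 FPKM in the D272Mut libraries, 78.7, 72.0, 78.1 and 80.7 in GTMut, and 6.92, 8.0, 7.29 and 8.69 in WT. The lowest mutant library lay far above the highest WT library. Means were 96.6 ± 9.09 FPKM in D272Mut and 77.4 ± 3.75 in GTMut, against 7.73 ± 0.782 in WT, ratios of 12.5 and 10.0. The log2 difference was 3.48 ± 0.08 for D272Mut (adjusted p = 4.06e-14) and 3.17 ± 0.08 for GTMut (adjusted p = 8.32e-14). From the highest difference down, Hspa1b ranked 261 of 12980 genes in D272Mut and 463 in GTMut.

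Hspa1a (mm10 chr17:34969357-34972156, minus strand, 1 exon) was lower in level than its neighbour in every library. It had 27.7, 31.1, 28.8 and 32.1 FPKM in D272Mut, 23.4, 23.6, 26.2 and 29.9 in GTMut, and 2.98, 3.83, 3.27 and 4.09 in WT. Mutant and WT libraries were again far apart, while those of the mutants overlapped. The mean ratio to WT was 8.44 for D272Mut, with a log2 difference of 2.77 ± 0.09 (adjusted p = 3.90e-12), and 7.28 for GTMut, with 2.56 ± 0.09 (adjusted p = 7.56e-12). As the libraries were pools of oocytes, fewer cells with the transcript and less transcript per cell cannot be told apart.

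How reads are split between the pair is uncertain, because their transcripts share sequence. Of the 150-base stretches of Hspa1b transcripts, 40.5% also occur in Hspa1a, and of those of Hspa1a 45.95% occur in another gene. Gm20481, a protein-coding gene annotated on the opposite strand, also covers 2225 of the 2800 bases of Hspa1a, and the sources used here do not say that reads were counted by strand. The sum of the pair was 111 to 134 FPKM in the D272Mut libraries and 95.6 to 111 in GTMut, against 9.90 to 12.8 in WT. The ratio of Hspa1b to Hspa1a was 3.22 ± 0.183 in D272Mut and 3.02 ± 0.275 in GTMut, against 2.19 ± 0.106 in WT. Every mutant library exceeded the highest WT ratio of 2.32.

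Hspa8 encodes HSC70, the constitutive Hsp70 that folds new proteins and uncoats clathrin vesicles. It was the most abundant Hsp70 transcript in every library and rose less. Hspa8 (mm10 chr9:40801271-40805199, plus strand, 9 exons) had 269, 248, 244 and 264 FPKM in D272Mut, 250, 253, 251 and 252 in GTMut, and 178, 183, 179 and 182 in WT. No mutant library reached down to the WT range. The log2 difference from WT was 0.50 ± 0.03 for D272Mut (adjusted p = 6.37e-09) and 0.48 ± 0.03 for GTMut (adjusted p = 9.45e-09), mean ratios of 1.42 and 1.39. Stretches shared with 5 other genes, mostly with the noncoding Gm26825, make up 23.02% of its 150-base stretches, and small nucleolar RNA genes lie within its locus.

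Hspa2, known for its role in meiosis of male germ cells, went the other way. Hspa2 (mm10 chr12:76404174-76406936, plus strand, 1 exon) was the lowest member in both mutants, with 2.58, 2.79, 2.63 and 2.81 FPKM in D272Mut, 3.89, 3.39, 3.27 and 4.21 in GTMut, and 4.14, 4.48, 5.27 and 5.57 in WT. D272Mut libraries lay below all others, and the highest GTMut library lay just above the lowest WT library. It fell by 0.66 on the log2 scale in D272Mut (SE 0.10, adjusted p = 2.87e-05) and by 0.32 in GTMut (SE 0.10, adjusted p = 0.00813).

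The makeup of the cytosolic Hsp70 transcripts differed between genotypes. The 4 genes summed to 385 ± 11 FPKM in D272Mut and 358 ± 6.47 in GTMut, against 197 ± 3.95 in WT. Hspa1a and Hspa1b together made up 32.8% ± 2.58 of that sum in D272Mut and 28.8% ± 1.23 in GTMut, against 5.73% ± 0.545 in WT, and Hspa8 made up 66.5% ± 2.60, 70.2% ± 1.29 and 91.8% ± 0.757 in D272Mut, GTMut and WT. Neither mutant overlapped WT in either share. Sums and shares over members are given as descriptions, with no test.

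**Figure D2:**
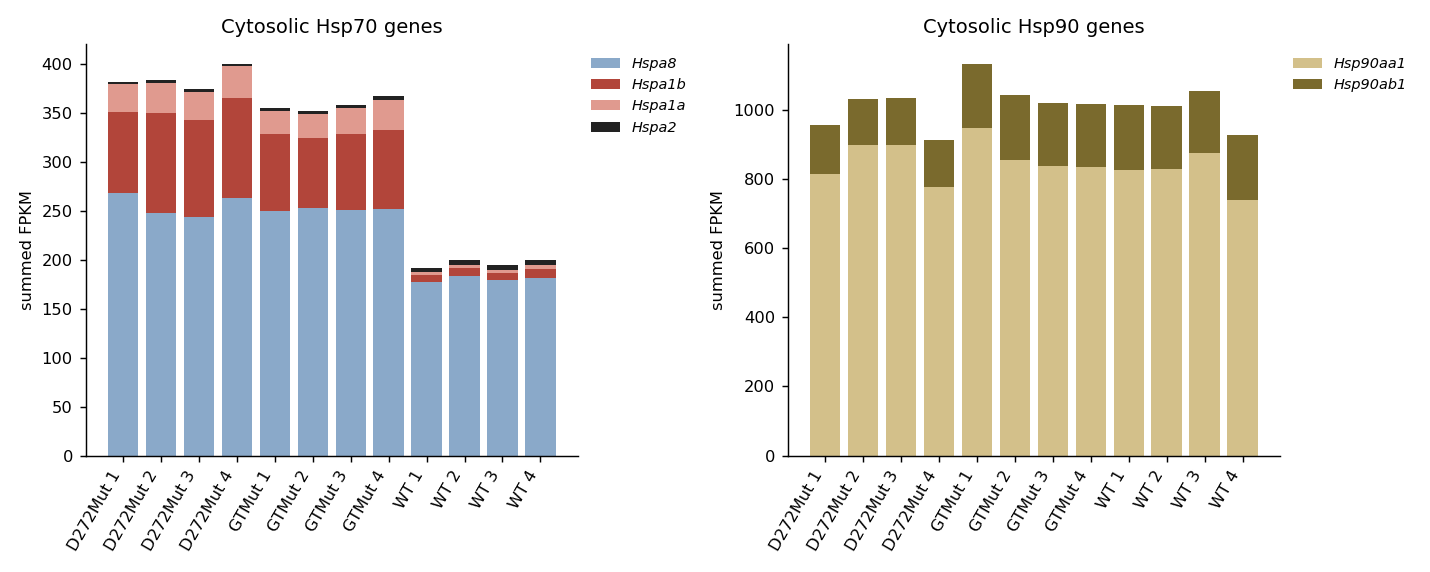
Stacked bars of FPKM (linear axes from 0) of the cytosolic Hsp70 genes, at left, and Hsp90 genes, at right, in each of the 12 libraries. The Hsp70 sum averaged 385 FPKM in D272Mut and 358 in GTMut, against 197 in WT, with most of the added height in Hspa1b and Hspa8, while the Hsp90 sum averaged 983, 1054 and 1002 FPKM in D272Mut, GTMut and WT.

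The partners of Hsp70 rose with it. DNAJB1, also called HSP40, delivers clients to Hsp70 and its gene is a target of HSF1. Dnajb1 (mm10 chr8:83608173-83611903, plus strand, 3 exons) had 392, 375, 381 and 391 FPKM in D272Mut, 387, 388, 384 and 387 in GTMut, and 144, 138, 144 and 141 in WT. Mutant libraries lay close together and well above WT. The log2 difference was 1.44 ± 0.03 in both mutants (adjusted p = 1.25e-14 for D272Mut and 8.92e-15 for GTMut), with mean ratios of 2.72 and 2.73. Relative to Hspa8, Dnajb1 stood at 1.503 ± 0.0430 in D272Mut and 1.54 ± 0.00896 in GTMut, against 0.785 ± 0.0273 in WT. Dnajb1 was thus above Hspa8 in FPKM in all 8 mutant libraries and below it in all 4 WT libraries.

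Hsph1, which encodes HSP105, and Hspa4, which encodes APG-2, are the cytosolic Hsp110 members. Hsph1 (mm10 chr5:149616843-149636315, minus strand, 18 exons) had 152, 164, 154 and 149 FPKM in D272Mut, 138, 137, 139 and 137 in GTMut, and 64.1, 68.5, 71.8 and 67.7 in WT. The libraries separated into 3 steps with D272Mut at the top. Its log2 difference from WT was 1.17 ± 0.04 for D272Mut (adjusted p = 4.06e-12) and 1.01 ± 0.04 for GTMut (adjusted p = 1.73e-11). Hspa4 (mm10 chr11:53259812-53300479, minus strand, 19 exons) had 50.3, 58.6, 51.1 and 51.6 FPKM in D272Mut, 59.4, 58.0, 54.1 and 55.5 in GTMut, and 24.3, 23.4, 23.8 and 24.4 in WT. The mutants overlapped each other and lay above WT. The log2 difference was 1.11 ± 0.05 for D272Mut (adjusted p = 1.08e-10) and 1.21 ± 0.05 for GTMut (adjusted p = 3.42e-11). Together the pair summed to 208 ± 10.4 FPKM in D272Mut and 195 ± 1.98 in GTMut, against 92.0 ± 2.96 in WT.

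The Hsp90 genes behaved differently. HSP90AA1 is the more inducible and HSP90AB1 the more constitutive form of cytosolic Hsp90. Hsp90aa1 (mm10 chr12:110691034-110696395, minus strand, 11 exons) was the most abundant member in every library, with 815, 898, 898 and 775 FPKM in D272Mut, 946, 855, 838 and 835 in GTMut, and 825, 828, 876 and 738 in WT. The 3 genotypes overlapped. Its log2 difference from WT was 0.05, with a 95% interval of -0.08 to 0.19, for D272Mut (adjusted p = 0.460) and 0.09, with an interval of -0.04 to 0.22, for GTMut (adjusted p = 0.199). The call depended on the scaling of libraries: after quantile normalization the differences were 0.43 for D272Mut (adjusted p = 1.17e-05) and 0.44 for GTMut (adjusted p = 8.77e-06), and after median-ratio rescaling 0.17 (adjusted p = 0.0296) and 0.20 (adjusted p = 0.0128). Over the 20 alternatives the adjusted p ran from 1.17e-05 to 0.955 for D272Mut and from 8.77e-06 to 0.532 for GTMut. Stretches shared with other genes, mostly the processed pseudogene Gm12346, make up 28.5% of its 150-base stretches.

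Among the members, Hsp90ab1 had the largest difference between the mutants. Hsp90ab1 (mm10 chr17:45567776-45573261, minus strand, 11 exons) had 142, 133, 136 and 136 FPKM in D272Mut, 188, 189, 183 and 183 in GTMut, and 189, 184, 178 and 190 in WT. D272Mut libraries lay below all others, and GTMut libraries lay within the WT range. Hsp90ab1 fell by 0.44 on the log2 scale in D272Mut (SE 0.03, adjusted p = 2.20e-08). In GTMut the difference was 0.00, with a 95% interval of -0.06 to 0.07 (adjusted p = 0.898), though median-ratio rescaling gave 0.11 (adjusted p = 0.00524, with a range of 0.00524 to 0.998 over the alternatives). Hsp90ab1 made up 13.9% ± 1.09 of the summed Hsp90 FPKM in D272Mut and 17.6% ± 0.739 in GTMut, against 18.5% ± 1.49 in WT. The sum itself overlapped between genotypes, at 912 to 1034, 1018 to 1134 and 927 to 1053 FPKM in D272Mut, GTMut and WT.

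Hsf1, the gene of the regulator, was lower in both mutants, and more so in D272Mut. Hsf1 (mm10 chr15:76477443-76500972, plus strand, 13 exons) had 28.8, 30.9, 28.9 and 27.3 FPKM in D272Mut, 36.0, 36.2, 35.4 and 35.2 in GTMut, and 39.1, 40.6, 37.4 and 39.0 in WT. The 12 libraries fell into 3 steps without overlap, with D272Mut lowest. Hsf1 fell by 0.42 on the log2 scale in D272Mut (SE 0.04, adjusted p = 7.84e-07), a mean ratio of 0.743. In GTMut it fell by 0.12 (SE 0.04, adjusted p = 0.0171), a mean ratio of 0.915. That small fall in GTMut was not past the threshold after median-ratio rescaling (-0.02, adjusted p = 0.681) or without WT replicate 2 (-0.11, adjusted p = 0.0536), and the adjusted p ran from 6.95e-05 to 0.681 over the alternatives. In the authors' deposited table its q-value for GTMut against WT was 0.320. The activity of HSF1 is controlled mainly on the protein, which was not measured here.

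**Figure D3:**
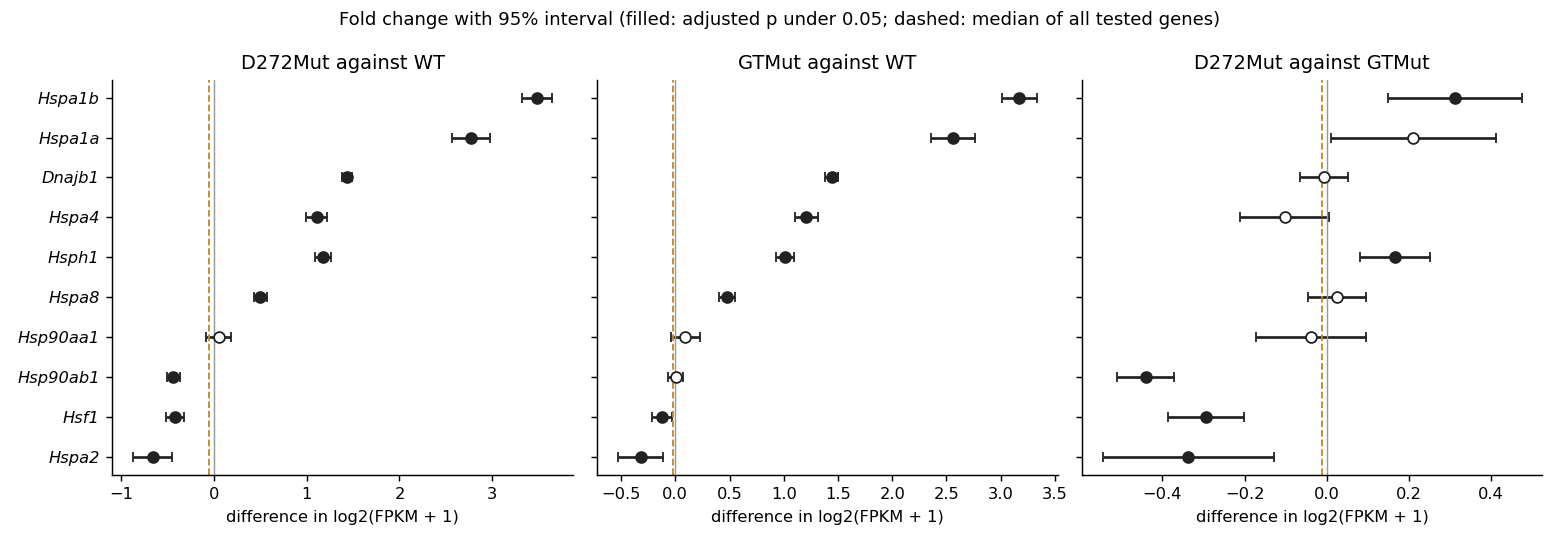
Differences in log2(FPKM + 1) of the 10 genes in 3 comparisons, with 95% intervals (horizontal axis, a scale of its own for each panel). Filled points passed an adjusted p of 0.05, open points did not, and the dashed line is the median of all tested genes. Hspa1b reached 3.48 in D272Mut against WT and 3.17 in GTMut against WT, while the differences of D272Mut against GTMut lay between -0.44 and 0.31.

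For the 6 members higher than WT in both mutants, the differences between the mutants were small beside those from WT. For Hsp90ab1, Hsf1 and Hspa2 they were not. In D272Mut against GTMut 2 of 10 members were higher, 3 were lower and 5 did not pass the threshold, where 19.3% of all tested genes were higher and 20.2% lower. The libraries did not overlap for 5 members, against 37.4% of all tested genes. The higher members were Hspa1b, by 0.31 ± 0.08 on the log2 scale (adjusted p = 0.00503), and Hsph1, by 0.17 ± 0.04 (adjusted p = 0.00464). The lower members were Hsp90ab1, which fell by 0.44 (SE 0.03, adjusted p = 2.42e-07), Hspa2, which fell by 0.34 (SE 0.10, adjusted p = 0.0136), and Hsf1, which fell by 0.29 (SE 0.04, adjusted p = 0.000125). For Dnajb1 the difference was -0.01, with an interval of -0.07 to 0.05, for Hspa8 0.03, with -0.05 to 0.10, and for Hsp90aa1 -0.04, with -0.17 to 0.10. Hspa1a stood at 0.21 (adjusted p = 0.0886), and passed without GTMut replicate 4 at 0.28 (adjusted p = 0.0278), after quantile normalization at 0.26 (adjusted p = 0.0355) and with the replicate number as a block at 0.21 (adjusted p = 0.0269), where the alternatives ranged from 0.0269 to 0.214. Hspa4 stood at -0.10 (adjusted p = 0.127), and without D272Mut replicate 2, its highest library, at -0.15 (adjusted p = 0.0125, range 0.0125 to 0.275).

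The authors' deposited table gave the same directions for the calls of members against WT. It listed a log2 ratio, without a pseudocount, of 3.71 for Hspa1b and 3.15 for Hspa1a in D272Mut over WT, and of 3.37 and 2.91 in GTMut over WT. Besides Hsf1 in GTMut, it differed from the fit in 1 call, Hspa1a in D272Mut over GTMut, with a deposited log2 ratio of 0.22 and a q-value of 0.0200 in the authors' deposited table.

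Ordered by mean FPKM, Hsp90aa1 came first and Dnajb1 next in both mutants, where Dnajb1 ranked 122 among the 12980 tested genes in D272Mut and 118 in GTMut, against 551 in WT. In D272Mut the order went on with Hspa8, Hsph1, Hsp90ab1, Hspa1b, Hspa4, Hspa1a, Hsf1 and Hspa2, and the libraries of neighbours overlapped only for Hspa1a and Hsf1. In GTMut it went on with Hspa8, Hsp90ab1, Hsph1, Hspa1b, Hspa4, Hsf1, Hspa1a and Hspa2, with no overlap between neighbours. In WT the order was Hsp90aa1, Hsp90ab1, Hspa8, Dnajb1, Hsph1, Hsf1, Hspa4, Hspa1b, Hspa2 and Hspa1a, and the libraries of Hsp90ab1 and Hspa8 overlapped. Hspa1b ranked 870 among tested genes in D272Mut and 1143 in GTMut, against 6320 in WT, and Hspa1a ranked 3127 and 3602, against 8136. The inducible pair was thus among the lowest members in WT, and Hspa1b stood above Hspa4 and Hsf1 in both mutants.

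The genes most like Hsf1 over the 12 libraries, by Pearson correlation of log2(FPKM + 1), were Gtf3c2 (r = 0.985), Arel1 (r = 0.983) and Reep6 (r = 0.980). Gtf3c2, a subunit of a factor for RNA polymerase III, had 28.5 ± 2.07 FPKM in D272Mut, 35.1 ± 0.856 in GTMut and 40.1 ± 1.15 in WT. The deposited locus of Reep6 spans other tested genes. Most like Hspa1b were Irf2bp1, Rcc2 and Mgat4a, each at r = 0.999. Irf2bp1, which encodes a partner of interferon regulatory factor 2, had 125 ± 11.2 FPKM in D272Mut and 106 ± 5.88 in GTMut, against 7.17 ± 1.03 in WT. These correlations describe libraries that fall into 3 genotypes, carry no p and say nothing of shared control.

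The wider network held both higher and lower genes, where 36.3% of all tested genes were higher and 39.5% lower in D272Mut against WT, and 38.3% were higher and 39.2% lower in GTMut against WT. The gene lists overlap: Hspb1 and Cacybp, for example, each stand in the list of further targets of HSF1 and in another list. They were chosen with earlier results of these data known. Among 13 tested heat shock factors and regulators of HSF1, 5 were higher and 6 lower in D272Mut, and 4 were higher and 6 lower in GTMut. Hsf2, a partner of HSF1 that is active in germ cells, had 16.7 ± 1.33 FPKM in D272Mut and 13.3 ± 0.906 in GTMut, against 1.85 ± 0.195 in WT, log2 differences of 2.63 ± 0.08 and 2.33 ± 0.08 (adjusted p = 8.86e-13 and 2.85e-12). Hsf2 thus rose where Hsf1 fell. Sirt1, whose product deacetylates HSF1 and prolongs its hold on DNA, rose to 191 ± 4.84 FPKM in D272Mut and 163 ± 9.24 in GTMut, against 26.3 ± 1.85 in WT. Ywhae, a 14-3-3 gene whose product binds phosphorylated HSF1, fell to 222 ± 11.9 FPKM in D272Mut and 205 ± 10.4 in GTMut, against 362 ± 17.4 in WT. The median difference of the list was 0.03 in D272Mut and -0.13 in GTMut. It became 0.14 and -0.04 after median-ratio rescaling, and -0.28 and -0.31 after quantile normalization, with 4 higher and 8 lower in GTMut. The counts of higher genes lay near the share of all tested genes.

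Of 19 tested further targets of HSF1 outside the set, 11 were higher and 4 lower in D272Mut, with a median of 0.28, and 12 were higher and 5 lower in GTMut, with a median of 0.31. Hspb1, which encodes a small heat shock protein that guards unfolded clients and actin, rose to 113 ± 10.9 FPKM in D272Mut and 114 ± 5.72 in GTMut, against 10.9 ± 2.08 in WT, log2 differences of 3.28 ± 0.11 in both. Cacybp, a gene that heat induces and whose product binds SIAH1, rose to 33.8 ± 1.72 FPKM in D272Mut and 38.3 ± 2.17 in GTMut, against 1.15 ± 0.179 in WT. Rgs2, a regulator of G protein signalling, fell to 240 ± 4.24 FPKM in D272Mut and 230 ± 6.21 in GTMut, against 356 ± 13.4 in WT. Also lower in each mutant were Ubqln1 and the listed Hsp90 co-chaperones Stip1 and Ahsa1, and Hspa4l was lower in GTMut. Of the 17 listed genes with a promoter window, 8 held a 2-unit heat shock element in any of their windows, where 16.97% of 27025 genes did. These genes were listed as targets of HSF1, so that count describes the list and is not a result of these libraries.

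Of 13 tested nucleotide exchange factors and other Hsp70 partners, 9 were higher and 1 lower in D272Mut, with a median of 0.95, and 11 were higher and 1 lower in GTMut, with a median of 0.70, where 36.3% and 38.3% of all tested genes were higher. Bag5, which encodes a nucleotide exchange factor, rose to 78.3 ± 3.79 FPKM in D272Mut and 86.4 ± 2.46 in GTMut, against 6.04 ± 0.792 in WT. Grpel2, for the exchange factor of mitochondrial Hsp70, rose to 40.4 ± 0.855 and 46.5 ± 1.96 FPKM in D272Mut and GTMut, against 4.08 ± 0.715 in WT. Tomm70a, for the receptor that takes precursors from Hsp70 and Hsp90 at mitochondria, rose to 13.6 ± 0.295 FPKM in D272Mut and 32.4 ± 1.27 in GTMut, against 1.76 ± 0.286 in WT. The mutants differed for Tomm70a, which fell by 1.20 on the log2 scale in D272Mut against GTMut (adjusted p = 4.12e-08).

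The J-domain genes were called in both directions, in D272Mut near the shares of all tested genes, with 17 higher and 15 lower of 39 tested in D272Mut and 19 higher and 13 lower in GTMut, counts that became 15 and 17 in D272Mut and 16 and 16 in GTMut after quantile normalization. Their median was 0.11 in D272Mut and 0.12 in GTMut, but 0.22 and 0.20 after median-ratio rescaling, and -0.10 and -0.04 after quantile normalization. Dnajb9, for a co-chaperone of the endoplasmic reticulum that stress induces, rose to 127 ± 4.08 FPKM in D272Mut and 200 ± 4.08 in GTMut, against 8.06 ± 0.956 in WT. Dnajc5, for the cysteine string protein of secretory vesicles, rose to 102 ± 6.32 FPKM in D272Mut and 147 ± 5.86 in GTMut, against 11.5 ± 0.945 in WT.

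Of 8 tested Hsp70 and Hsp110 genes outside the members, which include cytosolic ones, 4 were higher and 3 lower in D272Mut, and 4 were higher and 4 lower in GTMut. Their medians were 0.25 and 0.06, which became 0.36 and 0.16 after median-ratio rescaling, and 0.13 and -0.10 after quantile normalization. The 4 higher genes were Hspa1l, Hspa5, Hspa9 and Hspa13 in each mutant. Lower in each were Hspa12a, Hspa14 and Hyou1, and in GTMut also Hspa4l, while Hspa14 in GTMut did not pass after median-ratio rescaling (adjusted p = 0.0690). Hspa1l, for a cytosolic Hsp70 best known from the testis, had 1.88 ± 0.442 FPKM in D272Mut and 1.81 ± 0.321 in GTMut, against 0.390 ± 0.0957 in WT. Hspa1l also shares 150-base stretches with the far more abundant Hspa1a and Hspa1b, so its own share of reads is uncertain. Hspa13 had 9.69 ± 0.534 FPKM in D272Mut and 10.2 ± 0.518 in GTMut, against 3.85 ± 0.588 in WT. Hspa5, for the BiP chaperone of the endoplasmic reticulum, rose to 190 ± 3.84 FPKM in D272Mut and 224 ± 8.36 in GTMut, against 138 ± 6.20 in WT. Hyou1, for the Hsp110 relative of the same compartment, fell to 18.7 ± 1.63 FPKM in D272Mut and 17.9 ± 0.671 in GTMut, against 41.2 ± 3.44 in WT. Hsp90b1, for GRP94 of that compartment, fell to 29.5 ± 1.51 and 25.8 ± 1.37 FPKM in D272Mut and GTMut, against 43.8 ± 1.37 in WT. Its locus overlaps another tested gene on the opposite strand. Hspa9, for mitochondrial Hsp70, rose to 98.0 ± 1.42 FPKM in D272Mut and 89.9 ± 2.92 in GTMut, against 68.1 ± 2.65 in WT.

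Of 24 tested Hsp90 co-chaperones 11 were higher and 8 lower in D272Mut, and 15 were higher and 7 lower in GTMut. The medians were 0.17 in D272Mut and 0.28 in GTMut. They became 0.28 and 0.38 after median-ratio rescaling, with 15 higher and 6 lower in D272Mut, and -0.02 and 0.14 after quantile normalization, with 12 higher and 9 lower in GTMut. Nudcd2, a gene of the NudC family that works with Hsp90, rose to 86.7 ± 6.13 FPKM in D272Mut and 104 ± 4.88 in GTMut, against 9.62 ± 0.375 in WT. Tsc1, whose product slows the ATPase of Hsp90 besides its part in growth control, rose to 82.6 ± 3.32 and 87.5 ± 1.45 FPKM in D272Mut and GTMut, against 13.9 ± 0.978 in WT.

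Chaperonin and prefoldin genes were called in both directions, with 5 higher and 9 lower of 16 tested in D272Mut and 6 higher and 7 lower in GTMut, and with medians of -0.31 and -0.14. These became -0.20 and -0.04 after median-ratio rescaling, and -0.39 and -0.26 after quantile normalization. Among subunits of the cytosolic chaperonin, Cct4 rose to 54.6 ± 4.05 FPKM in D272Mut and 47.8 ± 3.00 in GTMut, against 8.40 ± 1.47 in WT, and Cct6a rose to 28.5 ± 0.430 and 32.9 ± 1.34, against 1.79 ± 0.393 in WT. The locus of Cct6a overlaps 2 other tested genes. Vbp1, for a prefoldin subunit, fell to 56.5 ± 2.64 FPKM in D272Mut and 39.4 ± 1.98 in GTMut, against 87.2 ± 6.07 in WT. Of 11 small heat shock genes 5 passed the filter on low values. Among these 1, Hspb1, was higher in each mutant, while 2, Hspb3 and Hspb11, were lower in D272Mut and 1, Hspb3, was lower in GTMut, and after quantile normalization 4 were lower in D272Mut and 2 in GTMut. Levels of Hspb3 and Hspb11 were low. Hspb3 reached at most 1.16 FPKM, and Hspb11 libraries overlapped, at 0 to 3.38 FPKM in D272Mut and 1.91 to 3.22 in WT.

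**Figure D4:**
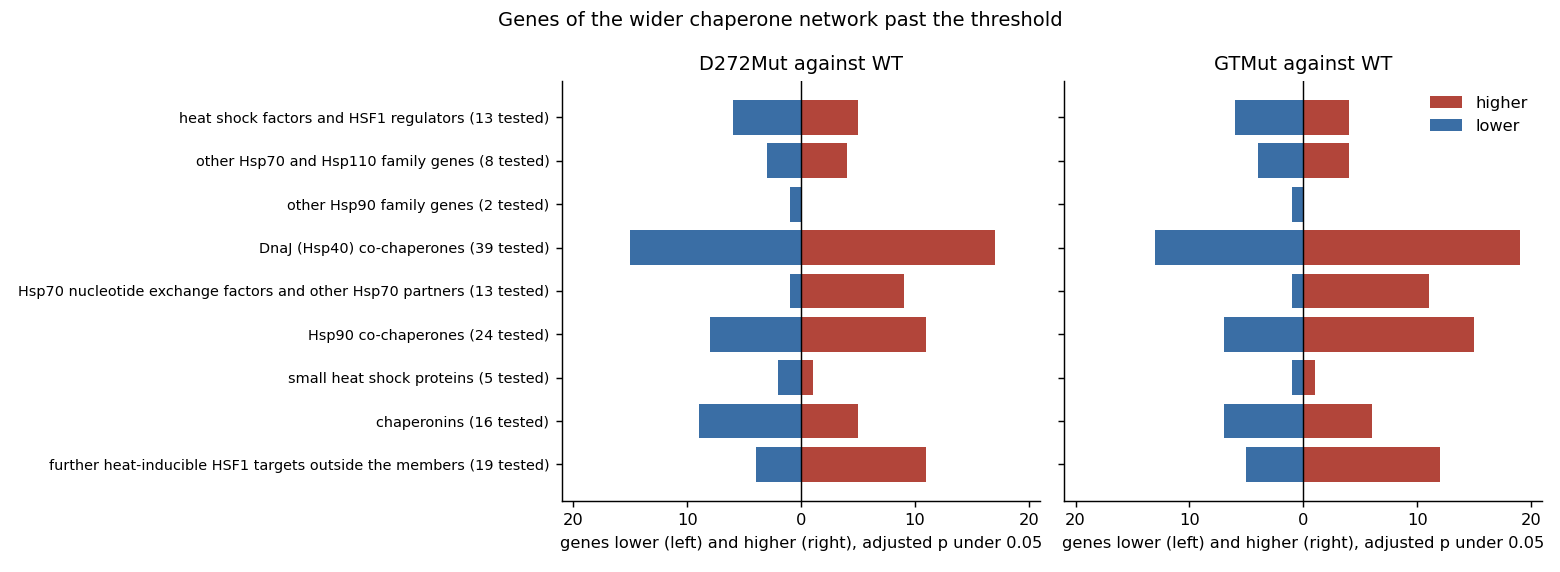
Number of genes (horizontal axis) of 9 gene lists around the chaperone set that were higher, to the right, or lower, to the left, at an adjusted p under 0.05, in D272Mut against WT and in GTMut against WT. The list of Hsp70 partners had 9 higher and 1 lower in D272Mut and 11 and 1 in GTMut, and the J-domain genes had 17 higher and 15 lower in D272Mut and 19 and 13 in GTMut. The lists overlap, so some genes are counted in several of them.

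Markers of cell types and of stress moved beside these results. Oocyte markers were abundant in every library, with sums of 8769 to 8960 FPKM in D272Mut, 9206 to 9577 in GTMut and 10636 to 10702 in WT, and Gdf9, an oocyte growth factor, stood at 4319 ± 45.8, 4544 ± 162 and 5592 ± 48.6 FPKM. Of 13 oocyte markers 4 were higher and 8 lower in each mutant, but 4 and 5 in D272Mut and 6 and 5 in GTMut after quantile normalization. The 4 higher in each were Ddx4, Dazl, Sohlh1 and Nobox, with Dazl at 463 FPKM in D272Mut and 478 in GTMut, against 186 in WT. Gdf9 was among the 8 lower. After quantile normalization its difference was 0.16 in D272Mut (adjusted p = 0.840) and 0.15 in GTMut (adjusted p = 0.845). Of 20 granulosa and cumulus markers 10 stayed below 1 FPKM in every library, and the list summed to 146 to 149 FPKM in D272Mut and 149 to 164 in GTMut, against 45.6 to 50.8 in WT. Most of that sum was Nr5a2, and without it the sums were 27.0 to 31.4 FPKM in D272Mut and 21.7 to 25.1 in GTMut, against 19.6 to 23.6 in WT. Of the 10 tested, 4 were higher and 2 lower in D272Mut and 4 were higher and 3 lower in GTMut, where quantile normalization gave 4 and 5. Higher in each mutant were Nr5a2, Inhba and Kitl, with Kitl at 11.6 FPKM in D272Mut and 11.7 in GTMut, against 2.63 in WT, and Inhba at 0.999 and 1.79, against 0.111. Gja1 was higher in D272Mut, at 3.30 FPKM, against 0.859 in WT, and stood at 0.507 in GTMut, and Nr5a1 was higher in GTMut, at 1.37 FPKM, against 0.268 in WT. Lower in each mutant were Fshr and Cyp19a1, with Cyp19a1 at 6.53 FPKM in D272Mut and 4.90 in GTMut, against 11.7 in WT, and Amh was lower in GTMut, at 0.517 FPKM, against 1.10 in WT. Foxl2 stayed below 1 FPKM in every library. Markers of theca, stroma, endothelium and blood summed to 21.7 to 29.7 FPKM in D272Mut and 17.8 to 18.9 in GTMut, against 26.6 to 30.0 in WT. Without Pecam1, which was lower in each mutant, the sums were 8.96 to 16.98 FPKM in D272Mut and 6.18 to 7.31 in GTMut, against 5.91 to 9.21 in WT. Of 9 tested, 2 were higher and 1 lower in D272Mut and 1 was higher and 1 lower in GTMut, with 4 and 5 lower after quantile normalization. Pdgfra was higher in each mutant. Lyz2 was higher in D272Mut, at 5.51 FPKM, against 1.13 in WT, with D272Mut libraries from 1.73 to 9.99 and WT libraries from 0.570 to 2.43. Immediate early genes, which cells induce within minutes of a stimulus, summed to 403 to 414 FPKM in D272Mut and 323 to 351 in GTMut, against 207 to 220 in WT. Without Ier2 the sums were 209.4 to 225.3 FPKM in D272Mut and 246.2 to 272.4 in GTMut, against 203.6 to 217.1 in WT. Those of D272Mut then overlapped WT, and those of GTMut lay above both. Of 13 tested, 9 were higher and 3 lower in D272Mut and 8 were higher and 3 lower in GTMut, with medians of 0.78 and 1.03, or 0.48 and 0.72 after quantile normalization, and with Ier2 at 189 ± 9.49 and 76.6 ± 7.88 FPKM, against 3.06 ± 0.560 in WT. Dusp1 and Btg2 were lower in each mutant, with Dusp1 at 52.5 FPKM in D272Mut and 35.2 in GTMut, against 91.5 in WT. Egr1 was lower in D272Mut and higher in GTMut, while Junb was higher in D272Mut and lower in GTMut. The part of these markers in the chaperone levels was not tested.

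The scaling of libraries moved the balance of higher and lower genes. Quantile normalization moved the median difference of all tested genes to -0.25 in D272Mut against WT and -0.23 in GTMut against WT, which were -0.05 and -0.02 without it, and gave 3865 genes higher and 6471 lower in D272Mut and 4105 and 6369 in GTMut, so that 37.4% and 39.2% of the calls were higher. Without it 4710 genes were higher and 5121 lower in D272Mut and 4973 and 5086 in GTMut, or 47.9% and 49.4% higher. The directions of the 6 higher members and of Hsf1 and Hspa2 were the same under both scalings, and Hspa8, the smallest of the 6 rises, stood at 0.50 in D272Mut and 0.48 in GTMut, and at 0.56 and 0.55 after quantile normalization.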

How the data were processed

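RNA-seq of 12 oocyte libraries, 4 per Marf1 genotype by label, was analysed. Reads of 150 bp were aligned to mm10 with TopHat2 2.0.13, and the authors made FPKM values with Cufflinks 2.2.1, per the submitters' processing notes and the design text. The labels' protocols differ: Smart-seq2 is named under extraction but not in the design text, and lysed ovaries are named under treatment where the design text has oocytes. The authors' deposited log2 ratios, p-values and q-values from cuffdiff were used only for comparison. The table's header lacks 1 name, so columns were read by position, and 1 line without content was not analysed here.

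Genes with a maximum of at least 1 FPKM in any library (12980 of 19162 above 0) were fitted as log2(FPKM + 1) with R 4.3.3 and limma 3.58.1 (intensity trend, two-sided, Benjamini-Hochberg adjustment, 9 residual degrees of freedom). Relative depth came from 66 library pairs. Annotation was Gencode vM21. Figures used matplotlib 3.10.9. Up to 3 genes with the smallest p per list and mutant, the 3 most abundant of each marker list and the 3 genes most like Hsf1 or Hspa1b could be named. The other named genes of the marker, immediate early, small heat shock, Hsp70 and Hsp110 lists were added after their values were seen. So were those of the further targets of HSF1. The members and gene lists were chosen with earlier results of these data known. There were 20 alternatives per result: pseudocount, filter, scaling, trend, groups fitted, replicate block and each library left out.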

Additional observations from a re-analysis of the deposited data

Results flagged for a closer look

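Among the 30 groups of 4 libraries formed by 10 genes and 3 genotypes, 2 held a library far from the others, and chance alone flags about 1 in 20 groups. Hspa1b stood at 83.1 FPKM in D272Mut replicate 1, where the other D272Mut libraries lay at 98.9 to 102. Hspa4 stood at 58.6 FPKM in D272Mut replicate 2, where the others lay at 50.3 to 51.6.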

How the results depend on the processing

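The 6 members higher in both mutants were past the threshold in the same direction under the 20 alternatives, as were Hsf1, Hspa2 and Hsp90ab1 in D272Mut against WT, with the exception that Hspa2 could not be fitted at a mean FPKM of at least 5. Over single members 228 values under alternatives that keep all libraries stayed on the same side of the threshold, 7 passed it newly, 1 no longer passed and 1 changed sign, and without 1 library these counts were 352, 2, 1 and 5. Where 4973 of 12980 tested genes were higher in GTMut against WT, a mean FPKM of at least 5 gave 3298 of 8139. In that comparison 1 member was lower with that filter, where Hspa2 was not fitted. With median-ratio rescaling or without WT replicate 2 it was also 1 member, as Hsf1 did not pass. Without each library in turn, 1 to 2 members were lower. Signs changed for values that were not called. They were Hsp90ab1 in GTMut against WT without GTMut replicate 2 (-0.0030) and without WT replicate 3 (-0.015, within a range of -0.015 to 0.017 without each library in turn), Dnajb1 in D272Mut against GTMut with median-ratio rescaling (0.0028) and without D272Mut replicate 2 (0.0060, within -0.016 to 0.0060), and Hsp90aa1 in D272Mut against GTMut without D272Mut replicate 4 (0.0031) and without GTMut replicate 1 (0.0039, within -0.067 to 0.0039). Deviations of same-numbered libraries had correlations from -0.357 to 0.0940, where those of differently numbered libraries ran from -0.176 to 0.363. Correlations with such a spread cannot decide whether the numbers pair libraries. The replicate block gave 4682 genes higher and 5089 lower in D272Mut against WT, 4943 and 5064 in GTMut against WT, and 2391 and 2540 in D272Mut against GTMut. Depth is known only as a ratio between libraries, which limits statements on low genes such as Hspa2.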
